A study of Sparus aurata with 8 samples.

Results

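The features described here are the subunits of the sodium pump (sodium/potassium-transporting ATPase), the sodium/hydrogen exchangers and the carbonic anhydrases of the gilthead seabream, Sparus aurata. They were chosen by product name alone: protein-coding features of the count table whose name contains sodium_potassium-transporting_ATPase, sodium_hydrogen_exchanger or carbonic_anhydrase. The rule found 33 of 31501 protein-coding features, among 197399 features in all. They comprised 5 pump alpha subunits, 6 pump beta subunits, 15 exchangers and 7 carbonic anhydrases.

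RNA was compared between haploid germ cells (HGC) and ejaculated spermatozoa (SPZEJ), with 4 libraries each and every library made from a pool of 3 males. The males were adult, captive-raised fish in their breeding season, sedated for sperm collection or anaesthetised for removal of the testis, and no other treatment or genetic modification is stated. HGC were released from the testis with collagenase, stained with a nucleic acid dye and sorted by flow cytometry. They are a mixture of type II spermatocytes and spermatids. SPZEJ were collected by abdominal pressure and were not sorted, and no such cell treatment is stated for them. Their RNA integrity was low while that of HGC was high. Cell stage, collection, cell treatment and RNA quality therefore cannot be told apart. The methods give a total number of males that equals 1 set of 4 pools, so HGC and SPZEJ pools may share fish, but which pools would match is not stated.

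The sodium pump uses ATP to export sodium and import potassium. Its alpha subunit carries the ion transport and ATP cleavage, and its beta subunit is needed for folding and for delivery to the membrane. Sodium/hydrogen exchangers of the plasma membrane use the sodium gradient made by the pump to expel protons from the cytoplasm. Other members of the family help to set the pH of endosomes and the Golgi apparatus. Carbonic anhydrases interconvert carbon dioxide with bicarbonate and a proton. In fish and mammalian spermatozoa, internal pH, sodium and bicarbonate are known to influence the start and the duration of flagellar movement.

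Libraries held 19865716 to 30645027 counts in HGC and 15395220 to 17886675 in SPZEJ. Meiosis and spermatid markers checked the labels: 12 of 15 tested were lower and 1 was higher in SPZEJ, and their summed level was 7287 to 10319 CPM (counts scaled to a common library total) in HGC libraries against 209 to 433 in SPZEJ libraries. Leukocyte markers went the other way, with 23 of 24 tested higher in SPZEJ (28 listed) and a summed level of 553 to 707 CPM in HGC and 3815 to 8883 CPM in SPZEJ. Of the 28, 4 were at 0 counts throughout HGC, and 2 throughout SPZEJ. Among duct epithelium markers (59 listed) 7 of 21 tested were higher and 1 lower, with summed levels of 887 to 1351 CPM in HGC and 972 to 2105 CPM in SPZEJ. Beside these marker counts, 23.9% of all tested protein-coding features were called higher and 31.9% lower (32.3% and 24.7% of all tested features). None of 3 tested testis somatic markers was called (5 listed), at 5.64 to 18.9 CPM in HGC and 5.26 to 19.2 CPM in SPZEJ. The part of other cell types in the results below was not tested, and in bulk libraries fewer cells of a type and less RNA per cell cannot be told apart.

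Both groups entered 1 edgeR quasi-likelihood fit over all features, p-values were adjusted by Benjamini-Hochberg, and a call needed an adjusted p under 0.01 together with an absolute log2 fold change over 1. Libraries are pools of different males, so these p-values measure the spread between pools. Positive log2 fold changes mean a higher level in SPZEJ, and every adjusted p below comes from this test unless another is named. Levels are CPM after TMM scaling. They depend on transcript length, so levels of different genes are not compared. Of the 33 features, 16 had enough counts in enough libraries to be tested, 15 did not, and 2 were at 0 in every library. Of the 16 tested, 4 were called higher and 4 lower in SPZEJ. Across all 21375 tested features 32.3% were called higher, 24.7% lower and 56.9% in either direction, and among the 15302 tested protein-coding features the shares were 23.9%, 31.9% and 55.8%, so the number of calls among the 16 is near the background. The median log2 fold change of the 16 was -0.20, against 0.45 over all tested features and -0.29 over the protein-coding ones.

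The 2 pump alpha subunits with the most counts moved in opposite directions. Alpha-1 (Saurata1B001960), the isoform found in most vertebrate cells, stood at 25.8, 22.4, 14.6 and 22.0 CPM in HGC replicates 1 to 4 and at 227, 256, 146 and 153 CPM in SPZEJ replicates 1 to 4. Every SPZEJ library lay above every HGC library, a 9.22-fold rise (log2 fold change 3.21, SE 0.32, edgeR adjusted p = 9.42e-06), and with scaling to library size only the log2 fold change was 3.92. The abundant alpha-3 feature (Saurata1B019545), named for the isoform typical of neurons in mammals, stood at 183, 237, 175 and 140 CPM in HGC and at 2.65, 6.24, 9.65 and 2.83 CPM in SPZEJ. It fell 34.5-fold (log2 fold change -5.11, SE 0.49, edgeR adjusted p = 7.07e-06), again with no overlap between the groups, and with library size only the log2 fold change was -4.50. No overlap was seen in 27.6% of tested protein-coding features with SPZEJ above HGC and in 38.0% with SPZEJ below.

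A ratio of the counts of both features within 1 library does not depend on scaling, although without lengths its absolute value has no meaning and only its change between groups can be read. Counts of alpha-1 per count of alpha-3 were 0.141, 0.0947, 0.0837 and 0.157 in HGC and 85.8, 41.0, 15.2 and 53.9 in SPZEJ. The lowest SPZEJ ratio belonged to replicate 3, which had the most alpha-3. This ratio was chosen after the values were seen.

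The remaining alpha features were scarce. A second alpha-3 feature (Saurata1B021811) stood at 1.5 to 2.08 CPM in HGC and 2.06 to 7.28 CPM in SPZEJ, opposite in sign to the abundant one, and was not called (log2 fold change 1.56, SE 0.50, edgeR adjusted p = 0.0152). SPZEJ replicate 4, at 2.06 CPM, lay within the HGC range, and without that library the second feature was called (edgeR adjusted p = 0.00385). Its call was also gained with only protein-coding features in the fit (edgeR adjusted p = 0.00278). The last alpha-3 feature (Saurata1B037987), scarce and singled out after its values were seen, had 0 counts in HGC and 8, 8, 1 and 2 counts in SPZEJ replicates 1 to 4, which is at least 5.48-fold higher against a floor of 3 counts over the HGC group. Alpha-2 (Saurata1B035554), in mammals the isoform of muscle and glia, was not tested. Its counts were 0, 3, 2 and 21 in HGC and 3, 29, 7 and 3 in SPZEJ, so each group held 1 library above the rest (exact permutation p = 0.543 over 4 against 4 CPM values, two-sided, smallest possible p = 0.0286).

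Among beta subunits 1 of 6 features was tested, and its level did not move detectably. The feature named beta-233 (Saurata1B014981) stood at 191, 276, 251 and 197 CPM in HGC and at 328, 172, 186 and 178 CPM in SPZEJ (log2 fold change -0.08, SE 0.30, edgeR adjusted p = 0.815). The sign of this small difference depends on the scaling: the log2 fold change was 0.71 with scaling to library size only, 0.26 with the upper quartile, 0.10 with DESeq2 size factors and 0.012 by DESeq2's own test, and none of these was called. SPZEJ replicate 1 was the highest of the 8 libraries and the other SPZEJ libraries lay below every HGC library. The 5 other beta features, named beta-2 or beta-3, had at most 10 counts in any library, and 1 of them had none in any. Summed over the family, alpha features came to 165 to 261 CPM in HGC and 158 to 272 CPM in SPZEJ, so the sums overlapped between the groups. The sum was mostly alpha-3 in HGC and alpha-1 in SPZEJ. Without lengths, it does not measure the total number of alpha transcripts.

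**Figure D1:**
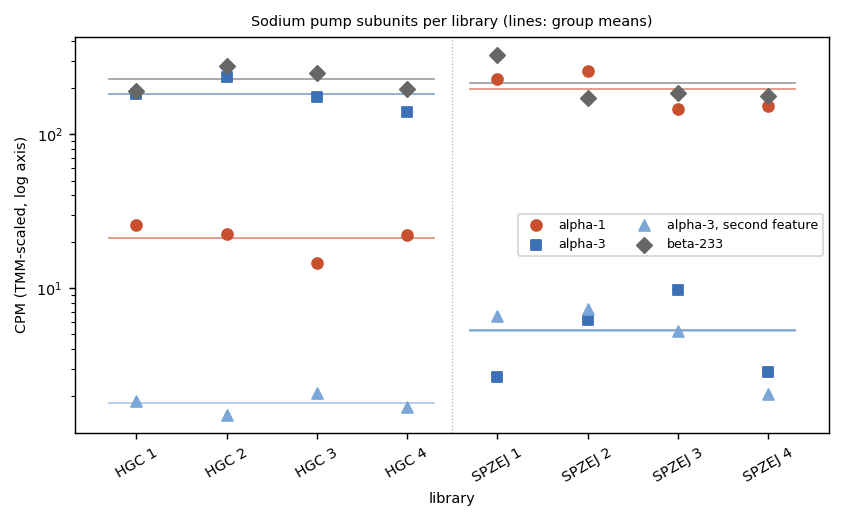
Levels of the 4 tested sodium pump features in each library, as CPM after TMM scaling on a log axis, with a horizontal line at each group mean. Alpha-1 lay at 14.6 to 25.8 CPM in HGC and 146 to 256 CPM in SPZEJ, the abundant alpha-3 at 140 to 237 and 2.65 to 9.65 CPM, and beta-233 at 172 to 328 CPM over both groups.

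Exchangers were the largest family, and 3 of their 9 tested members rose and 2 fell. This is near the shares over all tested features, 32.3% called higher and 24.7% lower (23.9% and 31.9% among protein-coding ones). The largest fold differences were of exchangers almost without counts in HGC. The mitochondrial-type exchanger 9B2 feature Saurata1B028668, named for an antiporter that carries sodium or lithium against protons, had 0, 0, 1 and 0 counts in HGC and 119, 51, 37 and 64 counts in SPZEJ (2.06 to 4.14 CPM). The ratio of counts summed over a group, each divided by the summed TMM-scaled library sizes, was 234 (95% counting interval 41.7 to 9287), and later ratios with a counting interval are of this kind. The rise was called (edgeR adjusted p = 3.01e-05). With so few HGC counts, the feature was tested only through its SPZEJ counts, so a fall could not have been called. With HGC replicate 3 left out no HGC count remained. The level was then at least 52.2-fold higher in SPZEJ, against 3 counts over the other 3 HGC libraries. The feature was still called (edgeR adjusted p = 0.000383), but leaving out the only HGC count could hardly remove a call. A second 9B2 feature (Saurata1B014382) was present in both groups, at 12.61 to 18 CPM in HGC and 9.75 to 14.4 CPM in SPZEJ, and was not called (log2 fold change -0.40, SE 0.30, edgeR adjusted p = 0.245). Of the features sharing this name, the one that rose was thus nearly absent from HGC, and the other overlapped between the groups.

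Exchanger 7 (Saurata1B057169), known in mammals from the trans-Golgi network and endosomes, had 0, 0, 1 and 1 counts in HGC. Its SPZEJ levels were 5.12, 5.98, 1.06 and 1.01 CPM (147, 92, 19 and 22 counts), a ratio of 121 (95% counting interval 33.2 to 1004) with edgeR adjusted p = 0.000223. Exchanger 7 too was tested only through its SPZEJ counts, so a fall could not have been called. Replicates 1 and 2 were several-fold above replicates 3 and 4, and all 4 lay above HGC. Pump alpha-1, given above, was also higher in SPZEJ replicates 1 and 2 than in replicates 3 and 4. The marker sums that follow, for SPZEJ replicates 1 to 4, were set beside exchanger 7 after its values were seen. Leukocyte markers were at 8883, 6454, 5261 and 3815 CPM, highest in replicate 1, whereas exchanger 7 was highest in replicate 2. Duct epithelium markers were at 2105, 1228, 1160 and 972 CPM. Erythrocyte markers were at 26.5, 9.55, 15.1 and 13.9 CPM, and testis somatic markers at 19.2, 5.26, 13.2 and 13.6 CPM. The part of other cell types in the exchanger 7 result was not tested.

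Exchanger 6, an endosomal exchanger in mammals, was represented by 3 features that did not move together. The abundant one (Saurata1B018062) fell from 80.0, 76.8, 91.6 and 59.2 CPM in HGC to 24.85, 18, 13.2 and 10.3 CPM in SPZEJ, a 4.63-fold decrease without overlap (log2 fold change -2.21, SE 0.33, edgeR adjusted p = 0.000156), with a log2 fold change of -1.45 under library size only. The next (Saurata1B028710) rose from 1.29, 1.10, 2.49 and 3.20 CPM to 6.86, 9.42, 6.81 and 5.94 CPM (3.57-fold, log2 fold change 1.84, SE 0.48, edgeR adjusted p = 0.00499), or 2.49 on the log2 scale under library size only. Although its groups did not overlap, this rise lost its call when HGC replicate 1, 2 or 3 or SPZEJ replicate 2 or 3 was left out (edgeR adjusted p = 0.0102 to 0.0364) and without the expression filter (edgeR adjusted p = 0.181). The last (Saurata1B010715) had 7 to 9 counts in HGC and 9 to 22 in SPZEJ and was not tested across features (exact permutation p = 0.143, two-sided).

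Exchanger 3 (Saurata1B039593), the sodium-absorbing exchanger of kidney and gut epithelia, fell from 2.21, 2.89, 1.25 and 1.40 CPM in HGC to 0.627, 0.195, 0.558 and 0.137 CPM in SPZEJ (4.97-fold, log2 fold change -2.31, SE 0.66, edgeR adjusted p = 0.00860). These are 24 to 50 counts per HGC library and 3 to 18 per SPZEJ library. Its call was lost when any HGC library or SPZEJ replicate 2, 3 or 4 was left out (edgeR adjusted p = 0.0142 to 0.0352), and by DESeq2 (adjusted p = 0.0113). It was also lost with DESeq2 size factors, the upper quartile, library size only, protein-coding features only or no filter (edgeR adjusted p = 0.0153, 0.0180, 0.0644, 0.0254 and 0.0361), and held in 5 of 20 alternatives. These 5 include the looser thresholds (adjusted p under 0.05, no fold threshold), under which a called feature cannot lose its call. Exchanger 9 (Saurata1B051334), an endosomal relative of exchanger 6, stood at 1.22 to 3.18 CPM in HGC and 0.594 to 0.837 CPM in SPZEJ. It was not called although the groups did not overlap (log2 fold change -1.63, SE 0.53, edgeR adjusted p = 0.0166).

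Exchangers 1 and 8 were present in both cell types without a call. Exchanger 1 (Saurata1B019112), the housekeeping exchanger of the vertebrate plasma membrane, stood at 7.5, 7.47, 14.4 and 9.999 CPM in HGC and at 20.3, 16.1, 9.60 and 10.9 CPM in SPZEJ (log2 fold change 0.53, SE 0.38, edgeR adjusted p = 0.229). Exchanger 8 (Saurata1B025443), a Golgi and apical exchanger in mammals, stood at 23.3 to 36.2 CPM in HGC and 18.1 to 31.5 CPM in SPZEJ (log2 fold change -0.32, SE 0.30, edgeR adjusted p = 0.357). For both, the ranges overlapped, and SPZEJ replicate 1 was the highest SPZEJ library. A missed call does not show that their levels were equal.

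Among the 6 exchangers that were not tested, those named exchanger 2 and exchanger 5 were at or near 0 in HGC. An exchanger 2 feature (Saurata1B055996) had 0, 0, 0 and 3 counts in HGC and 0, 1, 45 and 189 counts in SPZEJ replicates 1 to 4, and the 2 highest SPZEJ libraries exceeded the whole HGC group (exact permutation p = 0.257, two-sided). The ratio of its scaled counts was 67.7 (95% counting interval 22.9 to 331). The following features were scarce and are given, after their values were seen, for their lack of HGC counts. Another exchanger 2 feature (Saurata1B043855) had 0 counts in HGC and 1, 6, 1 and 3 in SPZEJ replicates 1 to 4, 3.17-fold above the floor of 3 HGC counts. Both exchanger 5 features had 0 counts in HGC. In SPZEJ replicates 1 to 4, Saurata1B039731 had 0, 8, 1 and 17 counts and Saurata1B055485 had 0, 5, 0 and 3. Their summed levels were 7.49-fold and 2.31-fold above that floor, and both overlapped between the groups at 0. These ratios follow the choice of features without HGC counts, do not allow for counting error in SPZEJ, and were not tested. The remaining exchanger 2 feature had at most 4 counts in any HGC library and 7 in any SPZEJ library.

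**Figure D2:**
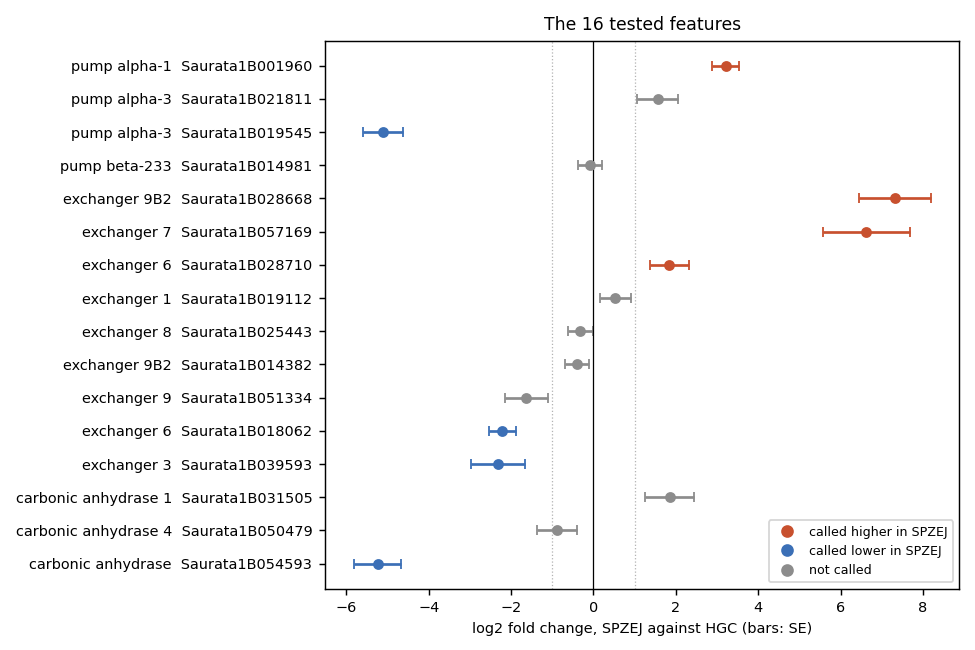
Log2 fold change of SPZEJ against HGC for each of the 16 tested features in the edgeR fit, with the SE as bars, dotted lines at -1 and 1, and colour for the call. The largest rises are those of exchangers 9B2 and 7, whose fitted values rest on 1 and 2 HGC counts and depend on the prior count, and the largest falls are those of carbonic anhydrase (-5.24) and the abundant pump alpha-3 (-5.11).

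The feature with the most counts of all 33 was a carbonic anhydrase without a number in its name (Saurata1B054593). It took 2.82%, 2.52%, 2.79% and 2.57% of the counts of HGC replicates 1 to 4 and 0.0939%, 0.142%, 0.1002% and 0.0740% of those of SPZEJ replicates 1 to 4. Exact binomial 95% intervals of these shares were narrow (2.81% to 2.83% in HGC replicate 1, 0.0726% to 0.0754% in SPZEJ replicate 4), and cover counting error only. In CPM it stood at 41656, 31012, 35454 and 29630 in HGC and at 578, 1650, 892 and 521 in SPZEJ. This was a 37.8-fold decrease without overlap (log2 fold change -5.24, SE 0.57, edgeR adjusted p = 1.69e-05, or -4.65 under library size only), and SPZEJ replicate 2 held the most of the SPZEJ libraries.

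Erythrocytes are rich in carbonic anhydrase, and 3 of 4 tested erythrocyte markers (10 listed) were lower in SPZEJ, against 31.9% of tested protein-coding features. Their summed levels were 168, 23.2, 51.5 and 682 CPM in HGC replicates 1 to 4 and 9.55 to 26.5 CPM in SPZEJ. Of the 10, 1 hemoglobin feature was at 0 in every library, and 2 are anion exchange features that also belong to the bicarbonate list below. Hemoglobin beta (Saurata1B024116) stood at 74.2, 4.98, 13.4 and 328 CPM in HGC replicates 1 to 4. The part of erythrocytes in the carbonic anhydrase result was not tested.

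The numbered carbonic anhydrases were scarce. Carbonic anhydrase 1 (Saurata1B031505), cytosolic in mammals, stood at 2.36, 0.637, 0.706 and 1.22 CPM in HGC and at 6.40, 4.16, 4.74 and 2.29 CPM in SPZEJ. It was not called (log2 fold change 1.85, SE 0.59, edgeR adjusted p = 0.0151) but was by DESeq2 (adjusted p = 0.00792), by limma-voom (adjusted p = 0.00476) and by edgeR without SPZEJ replicate 4 (adjusted p = 0.00827). A feature named carbonic anhydrase 4 (Saurata1B050479), a form anchored to the outer membrane surface in mammals, stood at 2.55 to 4.49 CPM in HGC and 1.34 to 2.83 CPM in SPZEJ (log2 fold change -0.89, SE 0.48, edgeR adjusted p = 0.120). The transmembrane form carbonic anhydrase 12 (Saurata1B034739) had 1 to 11 counts in HGC and 6 to 22 in SPZEJ (exact permutation p = 0.229, two-sided).

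In 2 carbonic anhydrases the SPZEJ counts came almost wholly from replicates 3 and 4. A second carbonic anhydrase 4 feature (Saurata1B042681) had 0, 0, 0 and 2 counts in HGC and 0, 8, 139 and 496 counts in SPZEJ, a ratio of 278 (95% counting interval 76.6 to 2300) that did not separate the groups (exact permutation p = 0.143, two-sided). Carbonic anhydrase 7 (Saurata1B000503) had 3 counts in HGC and 0, 0, 11 and 25 in SPZEJ, a ratio of 10.4 (95% counting interval 3.28 to 52.7; exact permutation p = 0.429, two-sided). Exchanger 2 (Saurata1B055996), above, had the same distribution over the pools, with all but 1 of its SPZEJ counts in replicates 3 and 4. The duct epithelium marker claudin-7-B (Saurata1B031713), 1 of the 59 listed and chosen after its values were seen, was also high in these pools. How many others of that list shared its order was not counted. It stood at 1.39, 3.05, 82.1 and 172 CPM in SPZEJ replicates 1 to 4 and 0.748 to 2.20 CPM in HGC. The summed level of the 59 listed duct epithelium markers went the other way, at 2105, 1228, 1160 and 972 CPM in SPZEJ replicates 1 to 4. The part of such cells was not tested. The last feature named carbonic anhydrase 4 had 0 counts in every library.

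**Figure D3:**
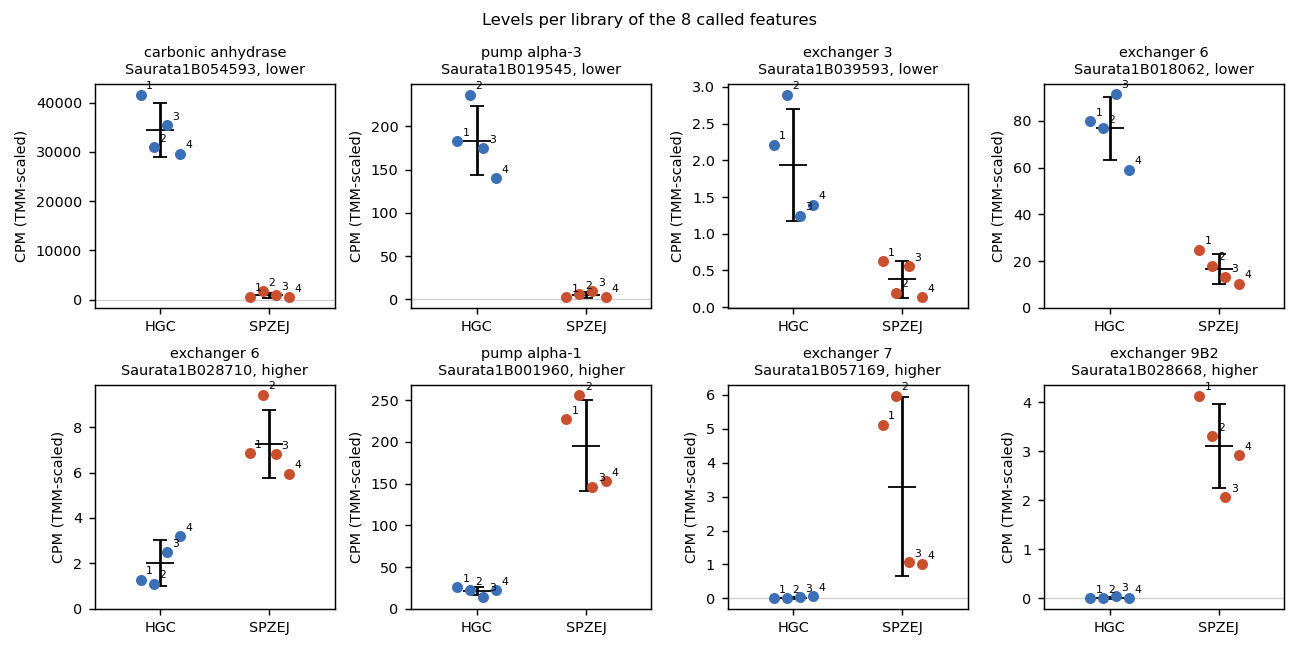
Level in each library of the 8 called features, as CPM after TMM scaling on linear axes that start at or just below 0, with the replicate number beside each point and bars for mean and SD of 4 libraries. In each panel the 4 SPZEJ points lie apart from the 4 HGC points, as for carbonic anhydrase (29630 to 41656 against 521 to 1650 CPM). Choosing features by their call favours such separation. Among the 16 tested features SPZEJ lay wholly above HGC in 4 and wholly below in 5. The shares among all tested protein-coding features were 27.6% and 38.0%.

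Features named Na(+)/H(+) exchanger beta, after the adrenaline-activated exchanger of trout erythrocytes, belong to the same family but do not bear the product name of the rule, and they were added after their values were seen. The abundant one (Saurata1B019607) stood at 649, 576, 724 and 567 CPM in HGC and at 5.81, 14.0, 10.5 and 11.2 CPM in SPZEJ. It fell 60.7-fold (log2 fold change -5.92, SE 0.37, edgeR adjusted p = 1.44e-06), and the part of erythrocytes in this result was not tested. The other (Saurata1B035221) was not called (log2 fold change -1.25, SE 0.54, edgeR adjusted p = 0.0560). A feature named ATP1B4 (Saurata1B047693), a relative of the pump beta subunits, had 4 to 24 counts in HGC and 0 to 12 in SPZEJ and was not tested.

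Proteins that bind the pump or the exchangers were examined as a list of 12 features with FXYD, calcineurin B homologous or exchange regulatory in their names. Of 6 tested, 3 were called higher and none lower, against 23.9% and 31.9% of all tested protein-coding features. The 3 not called differed in sign. Calcineurin B homologous 1 (Saurata1B007161) was lower in SPZEJ without overlap (log2 fold change -1.22, SE 0.47, edgeR adjusted p = 0.0365). The regulatory cofactor NHE-RF3 (Saurata1B005176) and FXYD regulator 6 (Saurata1B050820) had log2 fold changes of 1.58 and 0.38 (SE 0.57 and 0.57, edgeR adjusted p = 0.0264 and 0.565). FXYD domain-containing ion transport regulator 3 (Saurata1B048833), of a family of small modulators of the pump, stood at 3.01 to 19.0 CPM in HGC and 69.7 to 191 CPM in SPZEJ (log2 fold change 3.39, SE 0.56, edgeR adjusted p = 0.000270). Calcineurin B homologous 3 (Saurata1B057086), a cofactor that stabilises exchanger 1 at the plasma membrane in mammals, stood at 0.289 to 0.643 CPM in HGC and 5.53 to 13.8 CPM in SPZEJ (log2 fold change 4.08, SE 0.53, edgeR adjusted p = 5.62e-05). Both were highest in SPZEJ replicate 1. Among SPZEJ libraries the summed leukocyte, duct epithelium, testis somatic and erythrocyte markers were also highest there, and the part of such cells was not tested.

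Bicarbonate transporters were mostly lower in SPZEJ, as was the carbonic anhydrase above. Of 28 listed features 13 were tested, and 10 were called lower and 2 higher (median log2 fold change -2.72). Among all tested protein-coding features 31.9% were called lower and 23.9% higher. With scaling to library size only, 8 were called lower and 2 higher (median -1.89). Their summed level was 1126 to 2035 CPM in HGC and 129 to 179 CPM in SPZEJ. Anion exchange 3 (Saurata1B046668), which trades bicarbonate for chloride, fell from 303 to 692 CPM in HGC to 6.27 to 25.01 CPM in SPZEJ (log2 fold change -5.07, SE 0.51, edgeR adjusted p = 9.51e-06). A feature named sodium bicarbonate transporter 11 (Saurata1B017597) rose from 0 to 0.929 CPM in HGC to 30.1 to 47.2 CPM in SPZEJ (log2 fold change 6.36, SE 0.78, edgeR adjusted p = 3.77e-05), whereas its namesake (Saurata1B055003) fell (log2 fold change -2.72, SE 0.32, edgeR adjusted p = 2.65e-05). As for exchanger 6, a product name thus covered features called in both directions, and the same held for anion exchange 2 and monocarboxylate transporter 9.

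The V-type proton ATPase, which acidifies endosomes and lysosomes, had more calls higher than lower in SPZEJ. Of 26 subunit features 23 were tested, and 11 were called higher and 3 lower (median log2 fold change 1.21, also with the subunit at 0 counts set to its bound). The shares given above were 23.9% higher and 31.9% lower among tested protein-coding features, and 32.3% and 24.7% among all tested features. With scaling to library size only, 13 were called higher and 3 lower (median 1.97). The summed level overlapped, at 1111 to 1532 CPM in HGC and 1173 to 1682 CPM in SPZEJ. Its largest part in HGC was a subunit d 1 feature that fell. Without lengths, such a sum does not measure the total number of transcripts. Subunit d 1 (Saurata1B003207), which links the rotor to the membrane ring, fell from 716 ± 125 CPM in HGC to 149 ± 54.2 CPM in SPZEJ (SD, n = 4 libraries; log2 fold change -2.27, SE 0.33, edgeR adjusted p = 0.000110). Subunit C 1-B (Saurata1B055075), of the stalk, had 80, 26, 71 and 38 counts in HGC and none in SPZEJ, at least 82.9-fold lower. Chosen after their values were seen, a catalytic subunit A feature (Saurata1B039781) rose from 1.62 to 6.69 CPM in HGC to 91.6 to 196 CPM in SPZEJ, and the membrane subunit a isoform 4 (Saurata1B000204) from 4.75 to 14.1 CPM to 105 to 190 CPM (log2 fold changes 5.07 and 3.82, SE 0.49 and 0.40, edgeR adjusted p = 7.94e-06 and 1.26e-05).

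The list of other proton routes, drawn by product name, held calls in both directions. Of 23 voltage-gated hydrogen channel and monocarboxylate transporter features 16 were tested, with 6 called higher and 7 lower. Among tested protein-coding features 23.9% were called higher and 31.9% lower. A product name does not show that a carrier moves protons, and the list includes sodium-coupled features. Higher calls fell on the hydrogen channel and on transporters 1, 2, 4, 6 and 9. Lower calls fell on transporters 5, 7, 8, 9, 10, 12 and 13. Monocarboxylate transporter 10 (Saurata1B037866), a carrier of aromatic amino acids in mammals and the feature of this list with the highest mean CPM, fell from 124 ± 25.7 to 37.5 ± 18.4 CPM (SD, n = 4; log2 fold change -1.73, SE 0.35, edgeR adjusted p = 0.00113). Monocarboxylate transporter 2 (Saurata1B003858), which carries lactate or pyruvate together with a proton, had 1 HGC count and 464 SPZEJ counts, a ratio of 401 (95% counting interval 71.6 to 15878; edgeR adjusted p = 1.52e-05). Voltage-gated hydrogen channel 1 (Saurata1B025865), a proton outlet known from human spermatozoa and from phagocytes and chosen after its values were seen, stood at 0.0579 to 1.74 CPM in HGC and 22.9 to 27.7 CPM in SPZEJ (log2 fold change 5.55, SE 0.84, edgeR adjusted p = 0.000156). The gastric-type potassium-transporting ATPase alpha chain 1 (Saurata1B046189) fell from 1.14 to 3.02 CPM to at most 0.183 CPM (log2 fold change -4.42, SE 0.91, edgeR adjusted p = 0.00118), and no feature was named adenylate cyclase type 10.

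**Figure D4:**
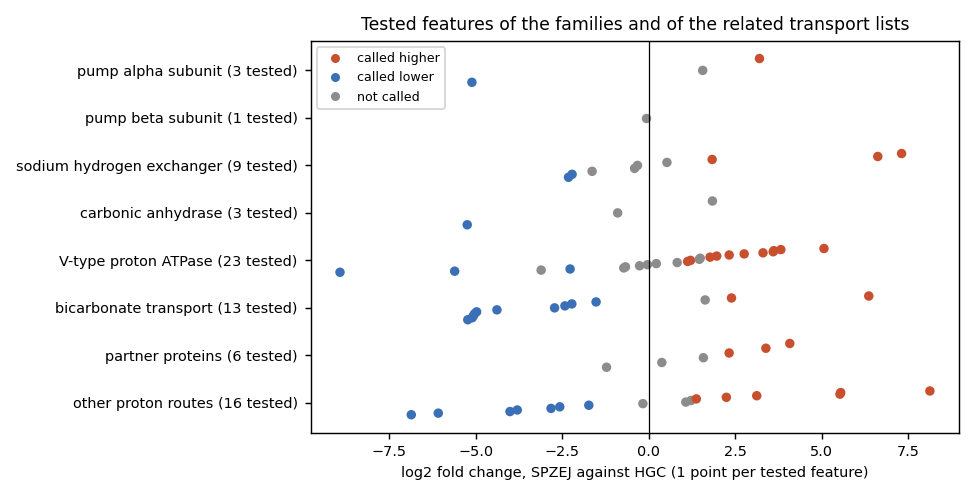
Log2 fold change of SPZEJ against HGC for each tested feature, 1 point per feature, by family and by list of related transport proteins, coloured by call. Bicarbonate transport has 10 points called lower and 2 called higher and V-type proton ATPase 3 and 11, and the points of subunit C 1-B, monocarboxylate transporter 2 and exchangers 9B2 and 7 rest on 0 to 2 counts in a group and depend on the prior count.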

How the data were processed

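RNA-seq was analysed from 4 HGC and 4 SPZEJ libraries, prepared unstranded by oligo-dT priming and amplification. The authors aligned reads with STAR 2.5.3a to their re-annotated seabream genome and deposited RSEM 1.3.0 expected counts per gene, as whole numbers without normalization. Without strand, reads of overlapping genes cannot be told apart, and the split of reads between near-identical copies, which features sharing a product name may be, is uncertain. No symbols, coordinates or lengths were used here.

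The members and the lists were chosen with earlier results of these data known. Features were filtered with filterByExpr, scaled by TMM and tested with edgeR 4.0.16 in R 4.3.3 over all 21375 features that passed. A feature at or near 0 counts in a group passes this filter only through the other group, so its call could go only 1 way. The SE was computed as the absolute log2 fold change over the root of the F statistic. Depth ranged from 15395220 to 30645027 counts per library. The floor for a group without counts was 3 counts over its libraries (0.0413 CPM in HGC, 0.0357 CPM in SPZEJ). Ratios against this floor do not allow for counting error in the other group. Counting intervals are exact (95%) and cover counting error only. Called members are given in every library, and others are named where tested or with 20 or more counts in some library. From each related list the called feature with the largest change and the one with the highest mean CPM were named. Replicate pairs differed by 11.1 to 60.6 times the counting variance, so none was a duplicate. The fit was also run on simulated counts with the same dispersion for every feature and few changed features. That setting does not cover the uneven spread between these pools, so no conclusion is drawn from it. Alternatives were DESeq2 1.42.0, limma 3.58.1 (voom), other scalings, filters and thresholds, omission of the 20 most abundant features or of 1 library, and a replicate block. A fit on protein-coding features was added after seeing the data. Figures used matplotlib 3.10.9.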

Additional observations from a re-analysis of the deposited data

Results flagged for a closer look

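Each tested feature with more than 20 counts in a group of 4 libraries was checked for a library far from the others by Dixon's ratio, in 30 groups, and 1 exceeded the 95% critical value. The pump subunit beta-233 (Saurata1B014981) stood at 328 CPM in SPZEJ replicate 1 against 172 to 186 CPM in the other 3 SPZEJ libraries (ratio 0.910). Chance alone gives about 1 in 20 such groups. Without this library its log2 fold change was -0.52 and it was still not called (edgeR adjusted p = 0.103).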

How the results depend on the processing

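Over the alternatives, 3 to 6 members were called higher and 2 to 5 lower, against 4 and 4. The lowest count of falls, 2, came from leaving out the 20 most abundant features, which removes carbonic anhydrase itself and left exchanger 3 short of the threshold (edgeR adjusted p = 0.0102). Leaving out 1 library gave 3 to 6 higher and 3 to 4 lower calls. Of the 8 called members, 6 kept their call under every alternative run that tested them, the exceptions being exchanger 3 and the exchanger 6 feature that rose. The looser thresholds (adjusted p under 0.05, no fold threshold) reuse the main fit and could not remove a call. Of the 8 not called, 5 stayed so, and carbonic anhydrase 1, the second alpha-3 and exchanger 9 gained a call under at least 1 alternative.

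Scaling to library size only raised the median over all tested features, on the log2 scale, from 0.45 to 1.19, and the log2 fold changes of exchangers 9B2 (Saurata1B028668) and 7 (Saurata1B057169) to 7.96 and 7.22. Under the alternatives run, the sign changed in 3 members, none of them called under any. Beta-233 (Saurata1B014981) took 0.012 by DESeq2, 0.10 with DESeq2 size factors, 0.71 with library size only, 0.26 with the upper quartile, 0.42 with protein-coding features only, and -0.52 to 0.13 with 1 library left out. Exchanger 8 (Saurata1B025443) took 0.47 with library size only, 0.024 with the upper quartile and 0.19 with protein-coding features only, and the 9B2 feature Saurata1B014382 took 0.38 and 0.10 with the first and last of these. The causes were not tested.

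Replicate numbers are shared by the groups, but deviations of same-numbered libraries correlated at 0.0125 to 0.117 and 2 of 4 SPZEJ libraries correlated best with their own number. With the replicate number as a block, 3 members were called higher and 3 lower, the losses being exchanger 3 and the exchanger 6 feature that rose (edgeR adjusted p = 0.0231 and 0.0140). The expression filter left 17 of 33 members untested, of which 2 had no counts.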
